A study of Mus musculus with 30 samples.

Results

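The CREST phospho-mimic after subthreshold training was examined in 12 of the 30 libraries of a mouse RNA-seq series, 6 Y397D-T3 mice and 6 VEH-T3 mice, across those 13184 of 24883 table rows whose mean FPKM reached 1. FPKM counts sequenced fragments scaled to transcript length and library size. The rows were chosen by this level alone, over all 30 libraries, and the libraries by their labels. Single genes were compared with limma, and classes of genes are described by counts and medians beside those of all tested genes.

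The series asks how a tyrosine of CREST affects expression in the dorsal CA1 (dCA1) of the hippocampus after the object location memory task, in which a mouse explores objects and later meets 1 of them in a new place. A session of 3 min is too short to leave a long-term memory (subthreshold, T3), whereas 10 min is enough (threshold, T10). Both conditions compared here consisted of adult male wild-type C57BL/6J mice that were single-housed, infused into both dorsal hippocampi 3 days before training, trained for 3 min and dissected 1 h later. VEH-T3 mice received the in vivo-jetPEI transfection reagent without DNA. Y397D-T3 mice received the reagent with a plasmid for HA-tagged mouse CREST carrying the Y397D substitution, driven by a short CaMK2 promoter that is active mainly in excitatory neurons. The vehicle held no plasmid of any kind, so an effect of the substitution and an effect of transfected DNA or of added CREST cannot be told apart here. The other conditions were VEH-HC (vehicle, home cage), VEH-T10 (vehicle, 10 min) and Y397F-T10 (a plasmid for the Y397F phospho-null form, 10 min), with 6 mice each. Each library is bulk RNA of 1 hippocampal hemisphere of 1 mouse, so p-values measure the spread between mice.

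CREST, encoded by Ss18l1, is a subunit of the neuronal BAF (nBAF) complex, which uses ATP to move nucleosomes and so opens or closes chromatin in postmitotic neurons. Its C-terminal end binds the histone acetyltransferase CBP, a coactivator of the transcription factor CREB, and calcium entering an active neuron drives transcription through both. Aspartic acid, which carries a negative charge, is commonly used to imitate a phosphorylated residue, and phenylalanine cannot be phosphorylated. Phosphorylation of this tyrosine was not detected in the study, so phospho-mimic and phospho-null serve here only as the labels' names for the substitutions. The end of the Ss18l1 reading frame is shown because it holds the altered codon. In the GENCODE transcript annotation of GRCm38 (mm10) it lies in exon 11 on the + strand of chromosome 2, at 180067332 to 180067358, with codon 397 of 402 at 180067338 to 180067340. The codon that is changed in the plasmids is in capitals and the last 3 bases are the stop codon.
Ss18l1 codons 395 to stop: ggccagTATggaaattaccagcaataa

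Ss18l1 was read first, because the plasmid carries its mouse coding sequence. Values of 6 mice are given throughout as lowest, median and highest. Ss18l1 measured 11.8, 12.9 and 14.7 FPKM in VEH-T3 against 12.9, 13.7 and 14.0 FPKM in Y397D-T3. The Y397D-T3 mice lay inside the VEH-T3 range, with 5 of 6 above its median. The difference of means was 0.067 on the log2(FPKM + 1) scale (2-sided exact permutation p = 0.195, where no comparison of 6 with 6 mice can go below 0.00216). Without VEH-T3 mouse 6, the highest, it was 0.10 (exact permutation p = 0.0303). The table has 1 row for plasmid and endogenous transcript together, and a rise over the vehicle was not detected with all 12 mice.

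Depth relative to the median library, read from the steps that single fragments leave at low FPKM, was 0.842, 0.975 and 1.16 in VEH-T3 against 0.950, 0.993 and 1.05 for the Y397D-T3 libraries. How many fragments each library held is unknown. Pearson correlation between the 12 libraries ran from 0.938 to 0.991 over the tested rows. VEH-T3 mouse 1 lay far from the other VEH-T3 mice on the first principal component (score -41.5, the others from -13.0 to 26.3), with Y397D-T3 mice 2 and 3 at -25.7 and -32.5. VEH-T3 mouse 4 lay far from all other 11 mice on the second component (-26.2) and had the most choroid plexus transcript. List medians are also given without both mice where that moved them by over 1.5 times. Markers of CA1 pyramidal neurons were present in both conditions, with all 8 listed genes tested, and so were markers of CA2 and CA3 (11 of 12 tested) and of dentate granule cells (11 of 11), so the samples hold more of the hippocampus than CA1.

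The first comparison asked which single genes differ when the phospho-mimic is present during subthreshold training. At a Benjamini-Hochberg adjusted p under 0.05 limma called 0 genes higher (0% of those tested) and 1 gene lower (0.00758%). The gene was Tmem263, which encodes a small membrane protein linked to skeletal growth. It measured 7.70, 8.11 and 8.62 FPKM in VEH-T3 against 6.45, 6.69 and 7.13 FPKM in Y397D-T3. All 6 Y397D-T3 mice lay below all 6 VEH-T3 mice. Tmem263 (chromosome 10, 85102627 to 85120618, + strand) fell by 0.24 on the log2 scale (standard error 0.041, limma adjusted p = 0.0383). Medians of the remaining conditions were 7.70 FPKM for VEH-T10, 7.96 for VEH-HC and 8.02 for Y397F-T10, so the Y397D-T3 median was the lowest of the 5 conditions. Over the alternatives the log2 fold change lay between -0.27 and -0.18, but the call was often lost. The adjusted p was 0.318 without VEH-T3 mice 1 and 4, 0.802 with the trend of GC content and length removed, 0.787 with only the 12 libraries, and between 0.077 and 0.212 without VEH-T3 mouse 1, 2, 3 or 4 or without Y397D-T3 mouse 1, 2, 3, 4 or 6.

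At an unadjusted p under 0.05, 679 genes were higher (5.15% of those tested) and 358 were lower (2.72%). These differences were small, with a median size of 0.16 log2 for the higher and 0.18 for the lower genes, and 4 and 20 of them reached 0.5. Without VEH-T3 mice 1 and 4 the counts were 656 and 506. The lower count was 835 without VEH-T3 mouse 1, 230 without VEH-T3 mouse 4 and 225 without Y397D-T3 mouse 2, and the higher count was 443 without VEH-T3 mouse 3. The mice of both conditions did not overlap for 18 genes on the higher side (0.137%) and 12 on the lower side (0.091%). For a gene without a difference, 6 and 6 mice fail to overlap in either direction with a probability of 0.00216. Both shares together are near that, so the counts alone do not mark these genes as changed. None of these genes but Tmem263 passed the adjusted test, where the next smallest adjusted p was 0.504.

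The genes with the largest differences among those without overlap are described next, and their adjusted p values ran from 0.504 to 0.628. Dbndd1, which encodes a dysbindin-domain protein, measured 4.77, 5.90 and 6.85 FPKM in VEH-T3 against 6.91, 7.50 and 8.50 in Y397D-T3 (log2 fold change 0.32). Lrp11, a member of the low-density lipoprotein receptor family, measured 61.9, 67.2 and 72.7 FPKM in VEH-T3 against 72.9, 76.5 and 81.4 in Y397D-T3 (log2 fold change 0.19). The lowest Y397D-T3 mouse lay just above the highest VEH-T3 mouse for both genes. Ldb1, a cofactor that bridges LIM-domain transcription factors, measured 36.9, 41.3 and 43.1 FPKM in VEH-T3 against 43.3, 44.6 and 51.1 in Y397D-T3 (log2 fold change 0.15). Log2 fold changes of the others were 0.23 for the uncharacterised AI846148, 0.22 for Tmem80, 0.18 for the selenocysteine elongation factor gene Eefsec, 0.18 for Fam174b, 0.17 for the transcript 9330102E08Rik, 0.16 for the homeobox gene Meis3 and 0.15 for Sgsm3.

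On the lower side the largest difference was that of Dcn, which encodes decorin, a proteoglycan of the extracellular matrix made by fibroblasts and by some hippocampal neurons. Dcn measured 11.6, 15.8 and 20.3 FPKM in VEH-T3 against 6.78, 10.0 and 10.9 in Y397D-T3 (log2 fold change -0.66). Acadsb, an enzyme of branched-chain acyl-CoA breakdown, measured 18.1, 18.9 and 25.4 FPKM in VEH-T3 against 15.0, 15.6 and 17.1 in Y397D-T3 (log2 fold change -0.29). VEH-T3 mouse 4 was far above the other VEH-T3 mice for Acadsb, whose next highest value was 19.1 FPKM. Mier1, a corepressor that recruits histone deacetylases, measured 7.01, 7.17 and 8.38 FPKM in VEH-T3 against 6.17, 6.38 and 6.82 in Y397D-T3 (log2 fold change -0.18). Log2 fold changes of the others were -0.56 for the hydrolase gene Fhit, -0.39 for Cyyr1, -0.39 for Cobll1, -0.35 for the noncoding Gt(ROSA)26Sor, which overlaps other transcripts, -0.30 for Intu, which acts in the building of cilia, and -0.23 for the cGMP phosphodiesterase gene Pde5a. Fhit, Cyyr1, Cobll1, Intu and Pde5a had medians under 3 FPKM, where adding 1 draws fold changes toward 0.

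**Figure D1:**
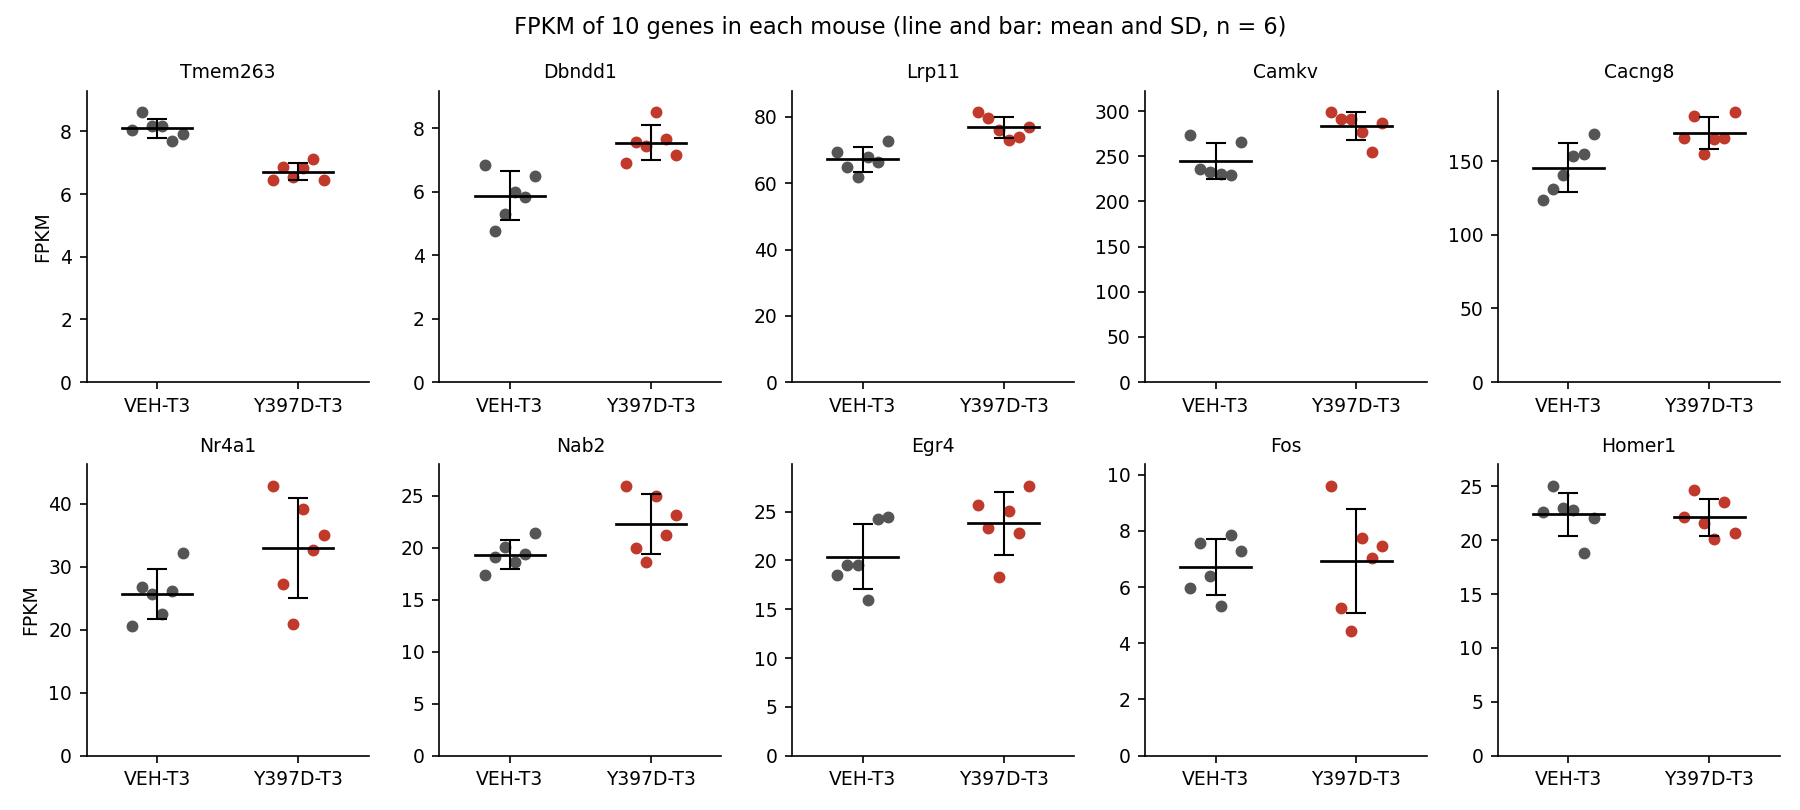
FPKM (vertical axes from 0) of 10 genes in each of the 6 VEH-T3 (grey) and 6 Y397D-T3 (red) mice, with the mean and SD as lines and bars. The conditions do not overlap for Tmem263, Dbndd1 and Lrp11, and the values for Fos and Homer1 overlap.

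Genes of the synapse lay mostly on the higher side in Y397D-T3 relative to VEH-T3, but not always relative to home cage. Most members of the ionotropic glutamate receptor, vesicle release, calcium sensor and voltage-gated channel lists had higher means in Y397D-T3 and their medians lay between 0.078 and 0.10 log2, but 0 of their genes passed the adjusted test. The background is that 50.9% of all tested genes had a higher and 49.1% a lower mean in Y397D-T3 and that the median over all tested genes was 0.0024. The share of higher genes depends on level, at 49.4% (median -0.0012) for genes with a mean log2(FPKM + 1) over 3 and up to 4, 61.1% (0.022) up to 5, 67.3% (0.037) up to 6 and 72.4% (0.050) over 6. By an unadjusted p under 0.05, 128 of 3055, 168 of 2315, 144 of 1356 and 156 of 1207 genes at these levels were higher. Over all tested genes 5.15% were higher and 2.72% lower by that p. The counts of the lists below were not tested against these. No test was run on the list medians, so they are descriptions. In Y397D-T3 the median over mice of the list mean was below VEH-HC for calcium sensors, potassium channels and cadherins. The same held for glutamate receptors (4.446 against 4.454), vesicle release (5.855 against 5.897) and metabotropic and GABA receptors (4.146 against 4.229). It was above VEH-HC for scaffolds (5.056 against 4.954) and for sodium, calcium and HCN channels (4.303 against 4.24). It was at or above VEH-T10 in each list. These differences were not tested.

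Of the 30 listed genes for NMDA, AMPA and kainate receptors and their auxiliary subunits, 29 were tested and 26 of these were higher (median log2 fold change 0.087), 5 of them at an unadjusted p under 0.05 with 0 lower. The mean log2(FPKM + 1) of the list was 4.28, 4.32 and 4.48 log2 in VEH-T3 against 4.38, 4.45 and 4.56 in Y397D-T3. All 6 Y397D-T3 mice lay above the VEH-T3 median and 1 lay above every VEH-T3 mouse, while VEH-T3 mice 1 and 6 lay within the Y397D-T3 range and the other 4 below it. Cacng8, which encodes an AMPA receptor auxiliary subunit that governs receptor trafficking, measured 124, 147 and 169 FPKM in VEH-T3 against 155, 166 and 183 in Y397D-T3 (log2 fold change 0.22, limma adjusted p = 0.504). Its relative Cacng7 measured 64.5, 80.1 and 82.2 FPKM in VEH-T3 against 79.9, 88.6 and 99.0 in Y397D-T3 (log2 fold change 0.21, adjusted p = 0.504). Both genes overlapped between conditions, with 2 and 4 Y397D-T3 mice above every VEH-T3 mouse. Grin2b, an NMDA receptor subunit gene that the study names, measured 8.75, 11.5 and 15.6 FPKM in VEH-T3 against 8.88, 14.3 and 19.6 in Y397D-T3 (log2 fold change 0.27 with a standard error of 0.196, adjusted p = 0.756). The Y397D-T3 mice spread more widely than the difference of the medians. The study reports Grin2b as raised over home cage only in Y397D-T3, from the same libraries, so its direction here is not independent evidence.

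For the machinery that docks, fuses and refills synaptic vesicles, 40 of 45 tested rows for 44 listed genes were higher (median 0.078), 4 at an unadjusted p under 0.05 with 1 lower. The list mean was 5.69, 5.77 and 6.09 log2 in VEH-T3 against 5.84, 5.86 and 6.03 in Y397D-T3. The highest value of all belonged to VEH-T3 mouse 1, mouse 6 lay within the Y397D-T3 range and the other 4 VEH-T3 mice lay below every Y397D-T3 mouse. Slc17a7, the vesicular glutamate transporter gene of excitatory neurons, measured 489, 540 and 605 FPKM in VEH-T3 against 578, 590 and 685 in Y397D-T3 (log2 fold change 0.16, adjusted p = 0.595). Amph, which encodes amphiphysin, a protein of vesicle endocytosis, had a log2 fold change of 0.15 (adjusted p = 0.595). Against this direction Sypl, a synaptophysin relative found in many tissues, measured 7.26, 9.59 and 11.3 FPKM in VEH-T3 against 7.03, 7.64 and 8.65 in Y397D-T3 (log2 fold change -0.28, adjusted p = 0.52). Without VEH-T3 mice 1 and 4 the list median was 0.12.

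Neuronal calcium sensors and calmodulin kinases, which carry the calcium signal to enzymes and to the nucleus, were higher in 30 of 34 tested genes (median 0.10), 2 at an unadjusted p under 0.05 with 0 lower. The list mean was 6.02, 6.08 and 6.26 log2 in VEH-T3 against 6.10, 6.19 and 6.30 in Y397D-T3. All 6 Y397D-T3 mice were above the VEH-T3 median. Camkv, a kinase-like protein that binds calmodulin at synapses, measured 229, 234 and 273 FPKM in VEH-T3 against 255, 289 and 299 in Y397D-T3 (log2 fold change 0.21, adjusted p = 0.504), with 5 Y397D-T3 mice above every VEH-T3 mouse. Calm3, a calmodulin gene, measured 969, 1038 and 1119 FPKM in VEH-T3 against 1035, 1163 and 1265 in Y397D-T3 (log2 fold change 0.15, adjusted p = 0.578). Of the calcium-related genes that the study names, the log2 fold change was 0.25 for Plch2, 0.16 for Hpca, 0.14 for Smoc2, 0.11 for Cabp7, 0.11 for Tesc and 0.096 for Camk1d. These 6 genes had adjusted p values from 0.639 to 0.757. For Camk1d and Plch2 all 6 Y397D-T3 mice exceeded the VEH-T3 median. The study chose these genes on the same libraries for being above home cage in Y397D-T3 and VEH-T10 but not in VEH-T3. Homer3, Egr2, Egr4, Per2, Fos, Sirt4, Zfpm1 and the histone genes Hist2h2aa2, Hist1h4j and Hist2h4 were chosen likewise. Elsewhere the study reports Fos as raised in VEH-T3 too. The direction of all these genes here is not independent evidence. The 6 calcium-related genes are members of the list above, so its count and median also depend in part on that choice. Of them, Plch2 and Smoc2 encode neither calcium sensors nor calmodulin kinases.

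Voltage-gated sodium, calcium and HCN channels, which shape firing and calcium entry, were higher in 22 of 26 tested genes of 36 listed (median 0.098), 5 at an unadjusted p under 0.05 with 0 lower. Cacnb3, an auxiliary calcium channel subunit gene, measured 68.1, 73.7 and 84.4 FPKM in VEH-T3 against 80.8, 87.6 and 94.2 in Y397D-T3 (log2 fold change 0.22, adjusted p = 0.52). Cacnb1, another beta subunit gene, had a log2 fold change of 0.13 (adjusted p = 0.52). Potassium channels, which limit excitability, were higher in 40 of 57 tested genes of 80 listed (median 0.045). Among them the log2 fold changes were 0.26 for Kcnk12, 0.23 for Kcng2 and -0.21 for Kcnj8, a channel gene of pericytes, with adjusted p values from 0.52 to 0.597. The potassium list mean, unlike those before it, was above the VEH-T3 median in 2 of 6 Y397D-T3 mice.

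Postsynaptic scaffolds were higher in 23 of 28 tested genes (median 0.060), 4 at an unadjusted p under 0.05 with 1 lower. Dlgap3, which links PSD-95 to Shank proteins, measured 79.5, 91.6 and 103 FPKM in VEH-T3 against 96.4, 101 and 114 in Y397D-T3 (log2 fold change 0.17, adjusted p = 0.535). Lrrtm1 and Lrrtm2 encode related postsynaptic adhesion proteins that bind neurexin, and their values lay in opposite directions. Lrrtm1 had a log2 fold change of 0.18 (adjusted p = 0.52) and Lrrtm2 one of -0.13 (adjusted p = 0.625), where the Lrrtm1 transcript holds 56.1% GC and the Lrrtm2 transcript 38.4%. Homer3 had a log2 fold change of 0.22 (adjusted p = 0.611). Because the study chose Homer3 on these libraries, the scaffold list is in part not independent of that choice. Metabotropic glutamate and GABA receptors were higher in 13 of 21 genes (median 0.060), a share of 61.9% beside the 61.1% of all genes at that level. The 1 member at an unadjusted p under 0.05 was Gabbr2, a GABA-B receptor subunit gene (log2 fold change 0.19, adjusted p = 0.578). Cadherins and protocadherins were higher in 46 of 73 (median 0.043), where the log2 fold change was 0.24 for Pcdhgb2 (adjusted p = 0.52), whose exons overlap those of its cluster neighbours, and 0.19 for Cdh9 (adjusted p = 0.578).

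The medians of these 8 lists had a positive sign in all 22 alternatives, leaving out each of the 12 mice included, but their size depended on single mice for 7 of them. Without VEH-T3 mouse 1 the median was 0.14 for vesicle release and 0.094 for potassium channels. Without VEH-T3 mouse 4 it was 0.057 for glutamate receptors, 0.049 for sodium, calcium and HCN channels, 0.040 for metabotropic and GABA receptors and 0.028 for cadherins. Without VEH-T3 mouse 5 it was 0.058 for sodium, calcium and HCN channels, 0.033 for metabotropic and GABA receptors, 0.026 for scaffolds and 0.013 for potassium channels. Without Y397D-T3 mouse 2 it was 0.057 for sodium, calcium and HCN channels and 0.025 for cadherins, and without Y397D-T3 mouse 3 it was 0.049 for vesicle release, 0.020 for metabotropic and GABA receptors and 0.013 for potassium channels. The calcium sensor median stayed between 0.081 and 0.12. The potassium channel median was 0.089 without VEH-T3 mice 1 and 4 together.

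With the trend of GC content and length removed the medians lay between 0.053 for potassium channels and 0.11 for glutamate receptors, against 0.020 for all tested genes. With the choroid plexus level as a covariate the medians were 0.075 for calcium sensors, 0.048 for glutamate receptors, 0.046 for potassium channels, 0.040 for sodium, calcium and HCN channels, 0.039 for vesicle release, 0.031 for scaffolds, 0.028 for cadherins and 0.025 for metabotropic and GABA receptors, against 0.013 for all tested genes.

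**Figure D2:**
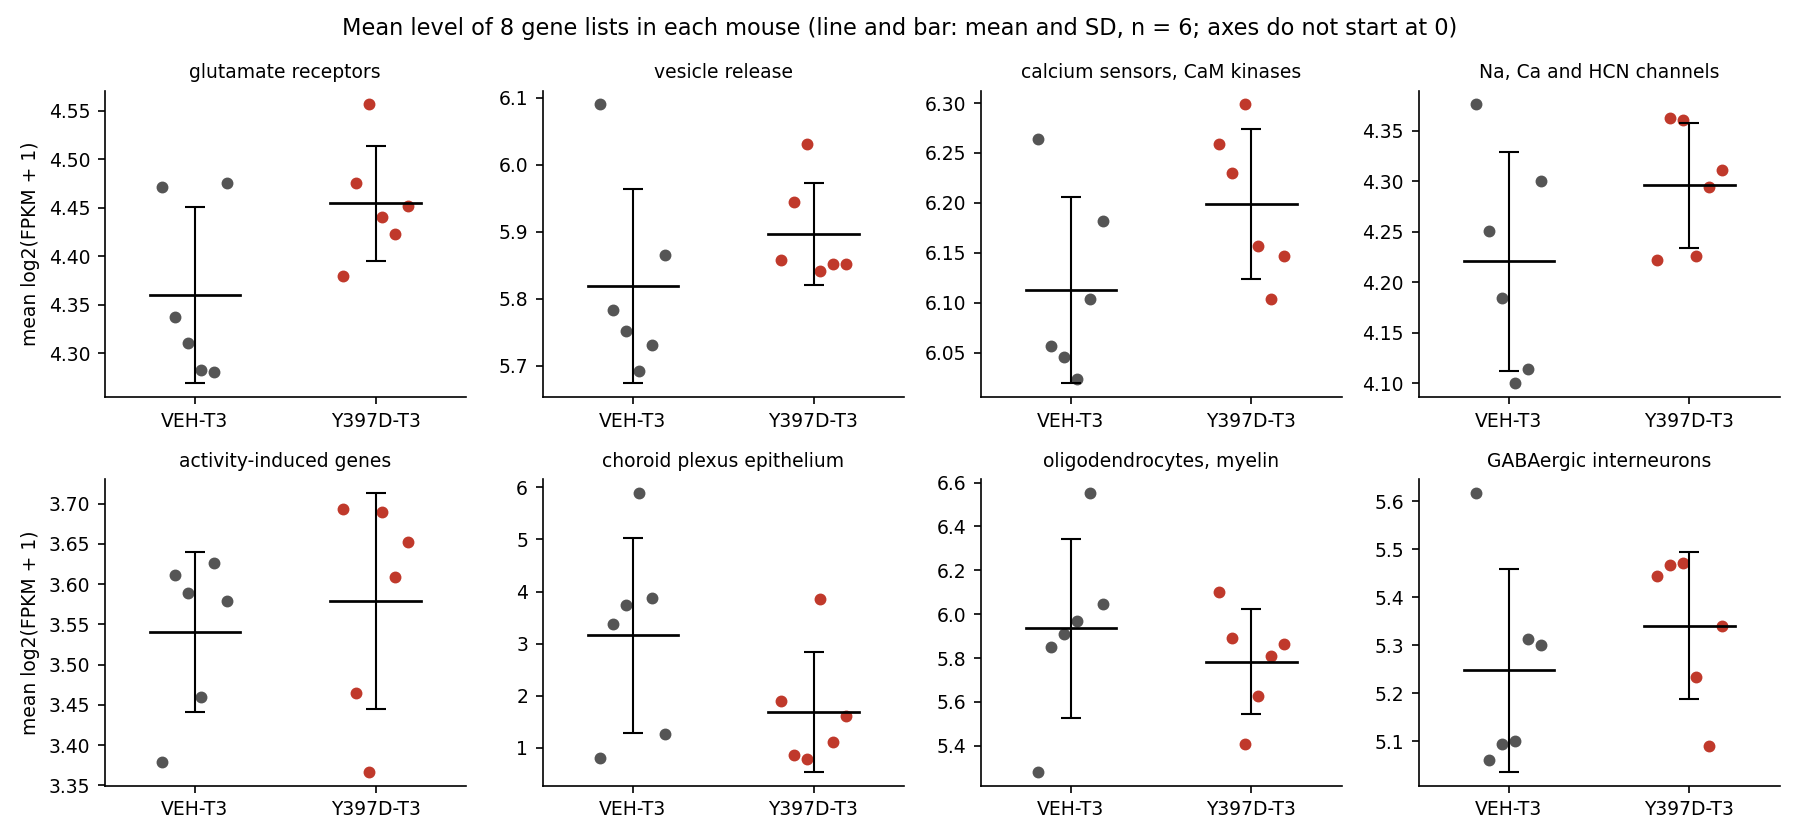
Mean log2(FPKM + 1) of 8 gene lists (vertical axes do not start at 0) in each VEH-T3 (grey) and Y397D-T3 (red) mouse, with mean and SD as lines and bars. For the 4 synaptic and channel lists of the upper row every Y397D-T3 mouse lies above the VEH-T3 median but the ranges overlap, and for choroid plexus 5 of 6 Y397D-T3 mice lie below it.

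Activity-induced genes, which neurons transcribe within minutes to hours of firing, were higher in 42 of 61 tested genes (median 0.051), 7 at an unadjusted p under 0.05 with 0 lower. Over all tested genes 50.9% were higher, with 5.15% higher and 2.72% lower at that threshold. The list holds Fos, Egr2, Egr4 and Per2, which the study chose on these libraries. It also holds Egr1, Homer1 and Dusp6, which the study names as above home cage in VEH-T10 and Y397D-T3. The list is thus in part not independent of that choice. Nr4a1, an orphan nuclear receptor gene of the early response, measured 20.6, 25.9 and 32.1 FPKM in VEH-T3 against 21.0, 33.8 and 42.9 in Y397D-T3 (log2 fold change 0.33 with a standard error of 0.121, adjusted p = 0.546). Nab2, which encodes a corepressor of Egr proteins, measured 17.3, 19.2 and 21.4 FPKM in VEH-T3 against 18.6, 22.2 and 26.0 in Y397D-T3 (log2 fold change 0.19, adjusted p = 0.52). In both genes 5 of 6 Y397D-T3 mice were above the VEH-T3 median and 1 was below it. Egr4, an early-response transcription factor gene, measured 16.0, 19.5 and 24.5 FPKM in VEH-T3 against 18.3, 24.2 and 27.7 in Y397D-T3 (log2 fold change 0.22, adjusted p = 0.597).

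Other well-known members had values on both sides. Fos, whose product is part of AP-1, measured 5.32, 6.83 and 7.87 FPKM in VEH-T3 against 4.44, 7.26 and 9.61 in Y397D-T3 (log2 fold change 0.014 with a standard error of 0.139, adjusted p = 0.986), with -0.092 when VEH-T3 mice 1 and 4 were left out. Egr1 measured 44.8, 58.5 and 64.2 FPKM in VEH-T3 against 35.0, 56.8 and 66.5 in Y397D-T3 (log2 fold change -0.055, adjusted p = 0.922). The Y397D-T3 mice of both genes reached both below and above the VEH-T3 range. Homer1, a scaffold gene with an activity-induced short form, had a log2 fold change of -0.016 (adjusted p = 0.965), which was 0.00015 with libraries centred and 0.059 with the GC and length trend removed. For Dusp6, a phosphatase gene that switches off ERK, it was 0.17 (adjusted p = 0.685), and for Egr2 0.15 (adjusted p = 0.822).

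The list mean of activity-induced genes was 3.38, 3.58 and 3.63 log2 in VEH-T3 against 3.37, 3.63 and 3.69 in Y397D-T3. The Y397D-T3 mice split, with 3 above every VEH-T3 mouse and 1 below all of them. The list median was 0.011 without VEH-T3 mice 1 and 4 and ran from 0.019 to 0.078 without single mice. The list means of the other conditions had medians of 3.48 for home cage mice (VEH-HC) and 3.53 for both VEH-T10 and Y397F-T10. Circadian clock genes were higher in 14 of 21 (median 0.047). Of the 3 at an unadjusted p under 0.05, the lowest p belonged to Csnk1e and Tef. The log2 fold change was 0.12 for Tef, a clock-controlled transcription factor gene (adjusted p = 0.611), and 0.085 for Csnk1e, a kinase gene that acts on Period proteins (adjusted p = 0.597). Per2, which the study chose on these libraries, had a log2 fold change of 0.081 (adjusted p = 0.802). Glucocorticoid receptors and targets were higher in 13 of 22 (median 0.028, negative in 4 of 22 alternatives and -0.052 without VEH-T3 mice 1 and 4). Its member Pdk4, a kinase gene that restrains pyruvate oxidation, had a log2 fold change of -0.25 (adjusted p = 0.578).

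The lists of CREST and its partners had small medians, of either sign. Of the 30 nBAF subunit genes, all tested, 18 were higher (median 0.018, with a negative sign in 2 of 22 alternatives and -0.0066 without VEH-T3 mice 1 and 4), 3 at an unadjusted p under 0.05. Actl6b, which encodes the neuron-specific actin-related subunit BAF53b, measured 42.6, 47.9 and 54.5 FPKM in VEH-T3 against 52.2, 56.8 and 61.4 in Y397D-T3 (log2 fold change 0.24, adjusted p = 0.52). All 6 Y397D-T3 mice were above the VEH-T3 median and 4 above every VEH-T3 mouse. Bcl7a, another subunit gene, had a log2 fold change of 0.13 (adjusted p = 0.546).

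CBP, p300, CREB and their coactivators were higher in 9 of 25 tested genes (median -0.028, negative in all 22 alternatives and -0.053 without VEH-T3 mice 1 and 4), 1 lower at an unadjusted p under 0.05. This was Creb1, the gene for CREB, which measured 5.72, 6.26 and 6.99 FPKM in VEH-T3 against 5.20, 5.78 and 6.03 in Y397D-T3 (log2 fold change -0.13, adjusted p = 0.578). Crebbp, the gene for CBP, measured 6.36, 7.76 and 8.48 FPKM in VEH-T3 against 6.48, 7.43 and 7.72 in Y397D-T3 (log2 fold change -0.057, adjusted p = 0.867). All 6 Y397D-T3 mice lay below the VEH-T3 median for both genes. The list mean was 3.46, 3.52 and 3.55 log2 in VEH-T3 against 3.48, 3.49 and 3.51 in Y397D-T3. By this mean too all 6 Y397D-T3 mice were below the VEH-T3 median, but inside the VEH-T3 range. The Creb1 transcript holds 39.6% GC.

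Histone deacetylases and corepressors were higher in 17 of 28 (median 0.0054, negative in 2 of 22 alternatives and -0.018 without VEH-T3 mice 1 and 4), 0 at an unadjusted p under 0.05. Histone lysine methylases and demethylases were higher in 19 of 47 (median -0.019, positive in 2 of 22 alternatives, 1 of them the removal of the GC and length trend). The demethylase genes Kdm3a and Kdm1b had log2 fold changes of -0.14 and -0.16 (adjusted p = 0.578 and 0.614). For the corepressor gene Zfpm1 and the mitochondrial sirtuin gene Sirt4 they were 0.11 and 0.16 (adjusted p = 0.824 and 0.644), and Zfpm1 had a negative sign with the GC and length trend removed (-0.052) and without VEH-T3 mice 1 and 4 (-0.013).

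Replication-dependent histone genes had the highest median of the 24 classes, 0.20, with 21 of 26 tested genes higher, 3 at an unadjusted p under 0.05 and 0 lower. The other 42 of the 68 listed genes fell below the filter on mean FPKM. The study chose Hist2h4, Hist1h4j and Hist2h2aa2 of this list on the same libraries, so its count and median depend in part on that choice. These genes are short, near-identical copies whose reads the counting could split, and their transcripts mostly lack a poly(A) tail, so their values are uncertain. Hist3h2a measured 49.8, 64.2 and 75.7 FPKM in VEH-T3 against 70.7, 76.5 and 87.1 in Y397D-T3 (log2 fold change 0.29, adjusted p = 0.52). Hist2h4 measured 0.501, 0.978 and 1.67 FPKM in VEH-T3 against 1.12, 2.35 and 3.09 in Y397D-T3 (log2 fold change 0.63 with a standard error of 0.268, adjusted p = 0.597). Only the first of these was expressed well above the filter. Hist1h4j ranged from 0 to 3.01 FPKM in VEH-T3 and from 0 to 7.20 in Y397D-T3, and Hist2h2aa2 was near 0 in at least 1 mouse of each condition and spread up to 4.40 and 2.19 FPKM. The list mean was 2.32, 2.85 and 3.16 log2 in VEH-T3 against 2.82, 3.09 and 3.18 in Y397D-T3, with 1 Y397D-T3 mouse above every VEH-T3 mouse. The list median was between 0.051 and 0.28 over the alternatives, and 0.11 without VEH-T3 mouse 1, the lowest.

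Most classes of basic cell machinery had medians close to 0, but mitochondrial ribosomal proteins had one as large as potassium channels (0.045) and cadherins (0.043). Mitochondrial ribosomal proteins were higher in 51 of 77 (median 0.046, positive in all 22 alternatives). With the GC and length trend removed 65 of 77 were higher, and without single mice the median ran from 0.0099 to 0.071. Log2 fold changes were 0.34 for Mrpl52 and 0.16 for Mrps18a (adjusted p = 0.524 and 0.618). Cytosolic ribosomal proteins were higher in 29 of 81 (median -0.016, positive in 4 of 22 alternatives). Their members at an unadjusted p under 0.05 were Rps4l and Rpl38, at 0.27 and 0.24, and Rpl37, at -0.17, with adjusted p values from 0.611 to 0.628, and such genes share reads with processed pseudogenes. Nuclear oxidative phosphorylation subunits were higher in 51 of 79 (median 0.018, negative in 1 alternative), where Cox6a1 and Ndufs7 had log2 fold changes of 0.26 and 0.13 (adjusted p = 0.523 and 0.619). Proteasome subunits (median 0.0040), SR and hnRNP splicing factors (-0.026) and chaperones (-0.0036) each had the opposite sign in at least 1 alternative. Leaving out VEH-T3 mice 1 and 4 gave medians of -0.052 for cytosolic ribosomal proteins, 0.068 for oxidative phosphorylation, -0.0011 for the proteasome and -0.012 for chaperones. The endoplasmic reticulum chaperone genes Dnajb9 and Hsp90b1 had log2 fold changes of -0.16 and -0.20 (adjusted p = 0.578 and 0.615).

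**Figure D3:**
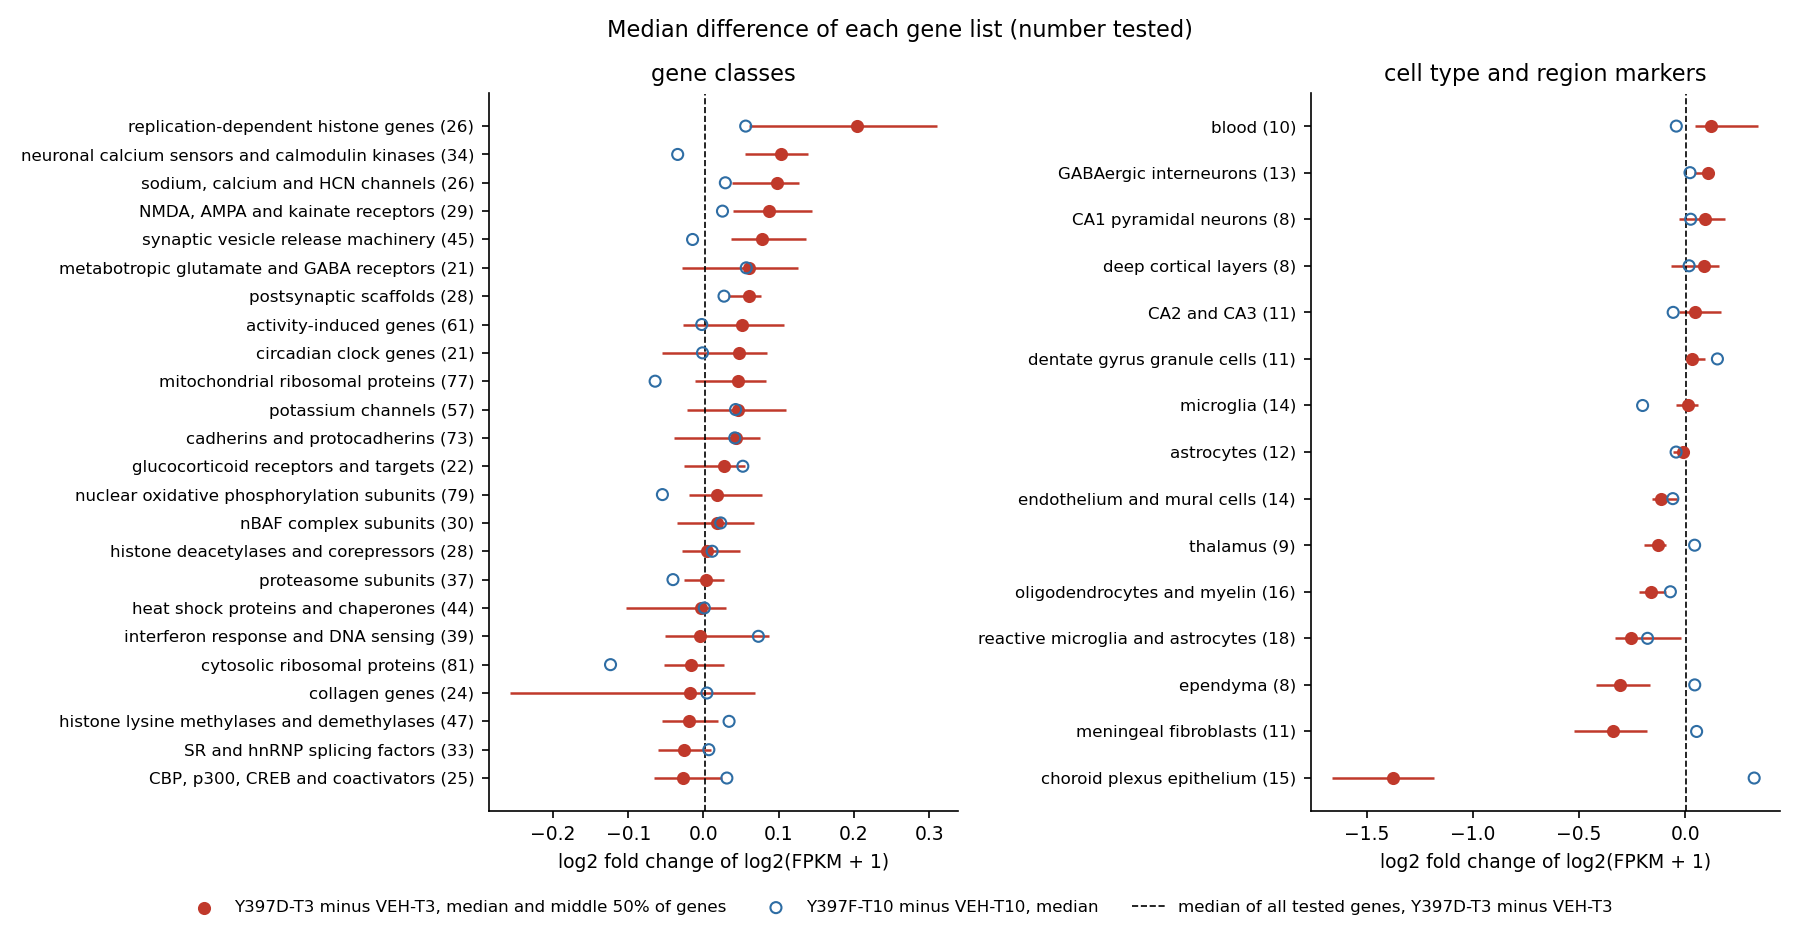
Median log2 fold change of 24 gene classes (left) and 15 marker lists (right), with the number of tested genes in parentheses. Red points and lines give the median and middle 50% of genes for Y397D-T3 minus VEH-T3, open blue circles the median for Y397F-T10 minus VEH-T10, and the dashed line the median of all tested genes. Synaptic and channel classes lie to the right of the dashed line and choroid plexus, meninges and ependyma to the left.

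Medians of markers for several other cell types and regions lay on the opposite side from the synaptic classes. Of the 15 choroid plexus epithelium genes 0 were higher (median -1.38), and the list mean was 0.803, 3.55 and 5.89 log2 in VEH-T3 against 0.785, 1.36 and 3.86 in Y397D-T3. The groups overlapped and the difference was within the spread between mice (2-sided exact permutation p = 0.154). Meningeal fibroblast genes were higher in 1 of 11 (median -0.34), ependyma in 1 of 8 (-0.31), oligodendrocytes and myelin in 1 of 16 (-0.16), thalamus in 1 of 9 (-0.13) and endothelium and mural cells in 2 of 14 (-0.11). For the oligodendrocyte list mean the groups overlapped too, and the difference of -0.15 log2 was within the spread between mice (2-sided exact permutation p = 0.461). The oligodendrocyte median was -0.34 and the ependyma median -0.49 without VEH-T3 mice 1 and 4. Single mice moved several of these medians, which ran from -0.33 without VEH-T3 mouse 1 to -0.040 without VEH-T3 mouse 5 for oligodendrocytes and from -0.60 to -0.10 without the same mice for ependyma. The thalamus median was -0.052 without VEH-T3 mouse 1, the endothelium median -0.063 without VEH-T3 mouse 6 and the choroid plexus median -0.87 without VEH-T3 mouse 4. In bulk tissue fewer cells of a type and less RNA per cell cannot be told apart. The part of these marker differences in the synaptic medians was not tested beyond the covariate values above. With that covariate the ependyma median was 0.095, the oligodendrocyte median -0.12 and the meningeal median -0.14.

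Neuronal marker lists had gene medians on the other side, though the granule cell list did not keep this direction by mouse. GABAergic interneuron genes were higher in 12 of 13 (median 0.11), CA1 pyramidal genes in 6 of 8 (0.094), CA2 and CA3 genes in 8 of 11 (0.046) and dentate granule cell genes in 9 of 11 (0.031, negative in 4 of 22 alternatives). The granule cell list mean had a median over mice of 3.73 log2 in VEH-T3 against 3.64 in Y397D-T3. For this list 5 of 6 Y397D-T3 mice lay below the VEH-T3 median. The CA1 list mean was 4.23, 4.34 and 4.57 log2 in VEH-T3 against 4.18, 4.37 and 4.48 in Y397D-T3. For CA1, 4 Y397D-T3 mice lay above the VEH-T3 median and 2 below it, 1 of them below every VEH-T3 mouse. With VEH-T3 mice 1 and 4 left out, the list medians were 0.16 for CA1, 0.028 for CA2 and CA3 and -0.049 for granule cells. Without single mice they ran from 0.049 to 0.18 for interneurons, from 0.067 to 0.17 for CA1 and from 0.0061 to 0.16 for CA2 and CA3. Cck, a neuropeptide gene of interneurons that some pyramidal cells also express, measured 551, 627 and 746 FPKM in VEH-T3 against 702, 734 and 836 in Y397D-T3 (log2 fold change 0.24, adjusted p = 0.524). Pou3f1, a transcription factor gene of CA1, had a log2 fold change of 0.20 (adjusted p = 0.578), whereas Dcn, which the CA1 list also holds, was on the lower side. The interneuron list mean was 5.06, 5.20 and 5.62 log2 in VEH-T3 against 5.09, 5.39 and 5.47 in Y397D-T3, with VEH-T3 mouse 1 the highest of all. On the lower side, the thalamic transcription factor gene Tcf7l2 measured 1.09, 1.49 and 1.73 FPKM in VEH-T3 against 0.624, 0.964 and 1.19 in Y397D-T3 (log2 fold change -0.31, adjusted p = 0.52). Log2 fold changes were -0.27 for Lef1, its relative, -0.19 for the pericyte gene Rgs5 and -0.57 for Lum, a matrix proteoglycan gene like Dcn (adjusted p = 0.628, 0.602 and 0.548).

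Differences between Y397D-T3 and VEH-T3 followed the base composition and level of transcripts. Among 1322 genes with up to 42% GC the median log2 fold change was -0.053, with 4 genes on the higher and 142 on the lower side by the unadjusted p. Among 3392 genes over 55% GC it was 0.053, with 462 higher and 5 lower. The 679 genes of the higher side had a median GC content of 57.4% and the 358 of the lower side one of 43.2%, against 50.3% over all tested genes. By level, the median went from -0.041 for 2493 genes with a mean log2(FPKM + 1) up to 2 to 0.050 for 1207 genes over 6. By transcript length it went from 0.021 up to 1000 bases to -0.028 over 7000 bases. With the trend of GC content and length removed from each library, 451 genes were on the higher side and 247 on the lower side by the same unadjusted threshold.

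The same gradient was read in each library as the median deviation of genes over 55% GC minus that of genes up to 42% GC. It was -0.16, -0.10 and 0.094 log2 in VEH-T3 against -0.039, 0.061 and 0.089 in Y397D-T3 (2-sided exact permutation p = 0.0303, not adjusted over the 8 library measures compared). In VEH-T3 mice 1 to 4 it lay below every Y397D-T3 mouse, VEH-T3 mouse 6 lay within the Y397D-T3 range and VEH-T3 mouse 5 just above it. In the other conditions the gradient ran from 0.0031 to 0.15 in VEH-HC, from -0.037 to 0.092 in VEH-T10 and from -0.11 to 0.036 in Y397F-T10. VEH-T3 mice 1 to 4 thus also lay below every VEH-HC and VEH-T10 mouse, while the Y397D-T3 range overlapped those of both. According to the methods NovaSeq and HiSeq were both used, but which library ran on which is not stated, and the part of the instrument in this gradient was not tested. The synaptic lists had median GC contents from 44.0% for metabotropic and GABA receptors to 53.6% for calcium sensors, and the calcium sensor median was 0.10 with and without the trend.

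**Figure D4:**
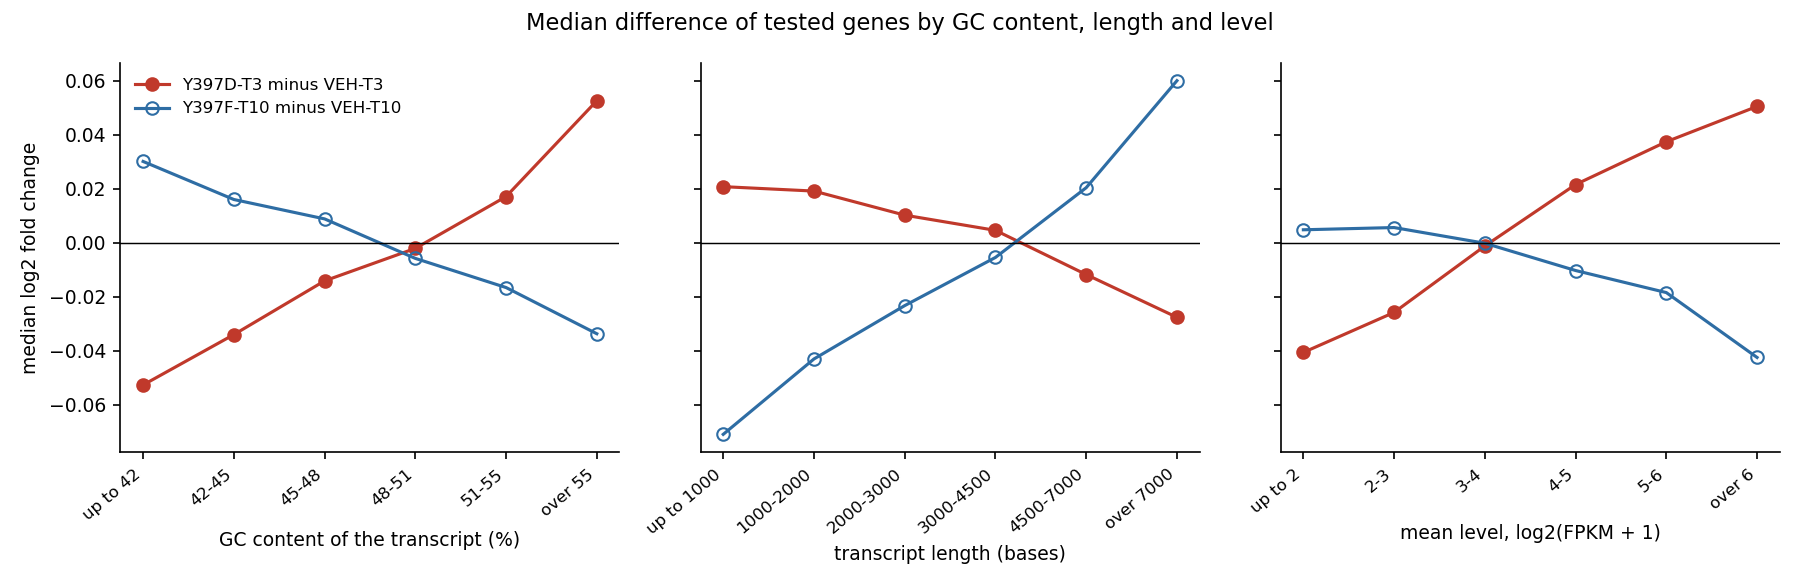
Median log2 fold change of tested genes in bins of transcript GC content (%), transcript length (bases) and mean log2(FPKM + 1), for Y397D-T3 minus VEH-T3 (red, filled) and Y397F-T10 minus VEH-T10 (blue, open). The medians go from -0.053 to 0.053 across GC bins in the first comparison and from 0.030 to -0.034 in the second.

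The last comparison asked whether the phospho-mimic and the phospho-null plasmids differ in their distance from their own vehicle. The contrasts share no library, but the training period differs along with the plasmid, so the 2 cannot be told apart. Y397F-T10 against VEH-T10 gave 0 called genes in either direction by limma, while 256 genes (1.94%) were on the higher side and 242 (1.84%) on the lower side by the unadjusted p. The difference between the contrasts was past an adjusted p of 0.05 for 0 genes on the higher side and 4 on the lower side (0.0303%), with 745 (5.65%) and 452 (3.43%) by the unadjusted p. The rule for named genes takes Rlim, Lrrc58 and Tmem263, the 3 with the largest differences.

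Rlim encodes a ubiquitin ligase that acts on LIM-domain cofactors. Its median was 8.10 FPKM in VEH-T3, 7.04 in Y397D-T3, 6.58 in VEH-T10 and 7.79 in Y397F-T10 (difference of contrasts -0.38, standard error 0.068, limma adjusted p = 0.0228). Lrrc58 had medians of 12.4 FPKM in VEH-T3, 11 in Y397D-T3, 10.2 in VEH-T10 and 11.8 in Y397F-T10 (-0.37, standard error 0.066, adjusted p = 0.0228). In both genes the Y397D-T3 mice were low and the Y397F-T10 mice high against their vehicle, and VEH-T10 was the lowest of these 4 conditions. The difference for Tmem263 was -0.32 (standard error 0.058, adjusted p = 0.0228). Within Y397D-T3 against VEH-T3 alone, the log2 fold changes of Rlim and Lrrc58 were -0.16 and -0.17, neither of them past the adjusted test (adjusted p = 0.504). The transcripts of these 3 genes hold between 40.3% and 43.0% GC, and 0 genes were called with the GC and length trend removed, with the choroid plexus covariate or without VEH-T3 mice 1 and 4. Without single mice the count was 0 for VEH-T3 mouse 2 or 3 and Y397D-T3 mouse 2 or 3, 1 for Y397D-T3 mouse 1 and from 3 to 5 for the others.

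Across all 13184 genes the fold changes of both contrasts were related with r = -0.24 and rho = -0.19, and with r = -0.18 and rho = -0.096 over 13093 genes after removal of the GC and length trend. Since genes do not vary independently, this is a description without a p. Of the 679 genes on the higher side of Y397D-T3, 21.5% were higher in Y397F-T10 than in VEH-T10, and of the 358 on the lower side 69.0% were, against 46.1% of all tested genes. By class, the phospho-null medians beside those of the phospho-mimic were -0.034 for calcium sensors, -0.014 for vesicle release, 0.025 for glutamate receptors, 0.029 for sodium, calcium and HCN channels, 0.027 for scaffolds, 0.057 for metabotropic and GABA receptors, 0.043 for potassium channels, 0.042 for cadherins, -0.0022 for activity-induced genes, -0.064 for mitochondrial and -0.12 for cytosolic ribosomal proteins, against -0.0076 for all tested genes. Of the 8 synaptic and channel lists, 6 thus had a positive median in both contrasts, and for potassium channels, cadherins and metabotropic receptors the 2 medians were close. For choroid plexus the median was 0.33, with 15 of 15 genes higher, so this marker list lay on opposite sides in the 2 contrasts.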

How the data were processed

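RNA from 1 hippocampal hemisphere of each mouse was sequenced as paired-end libraries. The authors deposited 1 table of FPKM values, with 24883 rows and 30 columns, 6 for each of 5 conditions. The submitters' processing notes name TopHat2 2.1.1 and Cufflinks 2.2.1 and the GRCm38 (mm10) build, and replicates were not pooled. Counts were not used here, so absolute depth is unknown, and the strand setting is not given in the sources used here. Symbols repeat on several rows for 280 genes (817 rows), which were kept apart.

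The 13184 rows whose mean FPKM over 30 libraries reached 1 were tested on log2(FPKM + 1) with limma 3.58.1 in R 4.3.3 (mean-variance trend, 1 coefficient per condition, Benjamini-Hochberg adjustment, threshold 0.05). The added 1 understates fold changes of low genes. Ss18l1 and library measures were compared by 2-sided exact permutation. Transcript GC content and length came from the GENCODE annotation of GRCm38 for 99.3% of tested rows. Alternatives were another pseudocount (0.1), other filters, library centring, removal of a GC and length spline (4 degrees of freedom), a choroid plexus covariate, summed rows, fewer libraries, a replicate block and leaving out each mouse. The script was tested on simulated data. Replicate numbers did not pair the mice (correlation of same-numbered deviations from -0.50 to 0.41).

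The comparison, its gene lists and its tests were chosen with earlier results of these data known. Named genes were the 10 in each direction with the largest fold change past the adjusted test, filled with genes at an unadjusted p under 0.05 whose mice did not overlap; up to 2 members per direction of each list with the lowest p under 0.05; up to 3 per direction of the difference of contrasts; and genes that the study names. Leaving out VEH-T3 mice 1 and 4 together was chosen after seeing the data. The values of 1 gene that differed between the contrasts are not reported here.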

Additional observations from a re-analysis of the deposited data

Results flagged for a closer look

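In 176 sets of 6 values for the named genes and 78 for the gene lists, the highest or lowest mouse was compared with its nearest neighbour as a share of the whole range (Dixon's ratio, critical value 0.625). Chance alone gives about 1 in 20 sets, and 7 gene sets and 5 list sets passed. In Y397D-T3, mouse 1 was highest for Eefsec (9.97 FPKM, next 8.76) and for Meis3 (18.6, next 16.8) and lowest for Cobll1 (1.67, next 1.93). Mouse 6 was lowest for Fhit (0.643 FPKM, next 1.78), and mouse 3 was highest for Tef (103.0, next 87.6). In VEH-T3, mouse 4 was highest for Intu (3.12 FPKM, next 2.16) and for Acadsb (25.4, next 19.1).

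Among list means on the log2(FPKM + 1) scale, Y397D-T3 mouse 4 was highest for choroid plexus (3.86, next 1.90), and Y397D-T3 mouse 2 was lowest for nBAF subunits (4.16, next 4.21). Y397D-T3 mouse 3 was lowest for ependyma (1.82, next 2.45) and for CA2 and CA3 (4.14, next 4.46). VEH-T3 mouse 1 was highest for deep cortical layers (3.67, next 2.99).

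The effect of the plasmid against its vehicle differed between Y397D after 3 min and Y397F after 10 min for 4 genes by a limma test of the difference itself. Among the named genes the differences were -0.38 for Rlim, -0.366 for Lrrc58 and -0.319 for Tmem263 on the log2 scale, each with an adjusted p of 0.0228. Plasmid and training period cannot be told apart in them.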

How the results depend on the processing

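No gene was called higher in any alternative of the limma test except 1 without VEH-T3 mouse 6, so leaving out single mice gave 0 to 1. The looser rules gave 679 genes on the higher and 358 on the lower side by unadjusted p, and 18 and 12 without overlap between the mice. The 1 lowered gene, Tmem263, was called with a mean FPKM of at least 5, a pseudocount of 0.1 and summed rows. The count was 0 with no filter on mean FPKM, with only the 12 libraries, with libraries centred, with the choroid plexus covariate, with the length and GC trend removed and without VEH-T3 mice 1 and 4, and 0 to 1 without single mice. The 4 genes differing between the contrasts became 0 with only the 24 libraries, with libraries centred, with the covariate, with the trend removed and without VEH-T3 mice 1 and 4, and 0 to 5 without single mice. With the replicate block the counts were 0 lowered genes and 0 genes differing between contrasts, while the unadjusted p gave 720 on the higher and 369 on the lower side, and the numbers did not pair the mice. The causes were not tested.

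Unadjusted counts were 480 higher and 187 lower with the covariate, 451 and 247 with the trend removed and 619 and 225 with a mean FPKM of at least 5. The Ss18l1 difference was 0.043 to 0.10 log2 without single mice (exact permutation p = 0.0303 without VEH-T3 mouse 6).

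Fold changes that took the opposite sign were those of genes that no setting called. Without VEH-T3 mice 1 and 4 they were -0.092 for Fos, 0.29 for Hist2h2aa2 and -0.013 for Zfpm1. With the trend removed they were 0.059 for Homer1 and -0.052 for Zfpm1, with libraries centred 0.00015 for Homer1, and with summed rows 0.057 for Hist2h2aa2. Without single mice Fos ran from -0.077 to 0.12, Egr1 from -0.12 to 0.064, Homer1 from -0.062 to 0.016 and Hist2h2aa2 from -0.39 to 0.10. Without read counts, the counting error of low genes could not be given.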

Other observations

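Genes of glial and immune states spread more between mice than between conditions. Interferon response and DNA sensing genes, which mark a reaction to virus or foreign DNA, had a list mean of 1.60, 3.09 and 4.38 log2 (lowest, median and highest mouse) in VEH-T3 against 1.91, 3.23 and 4.01 in Y397D-T3. Of 39 tested genes 19 were higher in Y397D-T3 (median log2 fold change -0.0047), and the median had the opposite sign in 11 of 22 alternatives. Without VEH-T3 mice 1 and 4 it was -0.50. Microglial genes ranged from 4.31 to 6.14 log2 in VEH-T3 and from 4.93 to 5.69 in Y397D-T3, with 7 of 14 higher (median 0.012, and -0.32 without those mice). Genes of reactive microglia and astrocytes ranged from 1.85 to 4.85 and from 2.1 to 4.08, with 3 of 18 higher (median -0.25, and -0.71 without those mice). Both conditions thus held mice with low and mice with high levels of these genes.

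Blood cell genes were higher in 8 of 10 tested rows (median 0.12, and 0.20 without VEH-T3 mice 1 and 4), a list that includes near-identical globin copies, and the difference of list means was within the spread between mice (2-sided exact permutation p = 0.271). Astrocyte genes were higher in 5 of 12 (median -0.010, opposite sign in 6 of 22 alternatives, and -0.067 without those mice), deep cortical layer genes in 5 of 8 (median 0.091, opposite sign in 1, and 0.17 without those mice) and collagen genes in 11 of 24 (median -0.018, opposite sign in 5, and -0.13 without those mice).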
